A study of Homo sapiens with 8 samples.

Results

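The ubiquitin-specific proteases (USPs) were described in the human glioblastoma line LN229-TAZ(4SA), whose name refers to TAZ, a transcriptional co-activator. Every gene whose symbol is USP followed by a number, with or without 1 closing letter, was taken as a member, which gave 44 of the 13036 genes listed. All 44 were among the 13028 genes tested. RNA was sequenced from 4 groups of 2 libraries: cells held with AF at 1 µM and no glucose for 1 h, cells in regular culture for 1 h, cells held with AF at 1 µM and no glucose for 7 h, and cells in regular culture for 7 h. The labels give AF only as an abbreviation, and regular culture had no AF. The series title concerns glucose-starved glioblastoma cells and the inhibition of thioredoxin reductase 1. AF and glucose loss were applied together, so their separate effects cannot be told apart, and all groups are the same line. Nothing in the labels says that the 2 libraries of a group came from separate cultures, so p-values measure the spread between libraries, which may be technical.

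USPs are cysteine proteases that cut ubiquitin from proteins or from other ubiquitins, and form the largest family of human deubiquitinases. By removing ubiquitin they can spare a protein from the proteasome, change where a membrane protein is sorted, or end a signal carried by ubiquitin on histones and repair factors. Many work with partner proteins that place or activate them, and a few members have long been classed as lacking catalytic activity.

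Listed genes held 27731776 to 45811965 reads per library. On the deposited scale of CPM, reads scaled to a common library size, 1 read amounted to 0.0209 to 0.0430 CPM. Levels are given as CPM for libraries A and B of a group, letters that carry no order. Of 6 glioma and mesenchymal markers 5 were listed: VIM (2731 to 3732 CPM), TNC (2418 to 3263 CPM), NES (888 to 1440 CPM), CD44 (863 to 1144 CPM) and EGFR (57.2 to 103 CPM). SOX9 was not analysed here. The 3 mature neural markers summed to 27.4 and 32.1 CPM in treated cells at 7 h and to 1.23 to 4.73 CPM in the other libraries. RBFOX3 made up most of the sum in treated cells at 7 h, with 25.2 and 28.7 CPM, while GFAP (0.438 to 1.34 CPM) and MBP (0.355 to 2.21 CPM) were low in all 8. The part of these markers in the results below was not tested. The members took 0.293% and 0.298% of listed reads in treated cells at 7 h, against 0.328% and 0.327% in regular culture at 7 h. Their summed CPM went the other way, with 3496 and 3516 CPM in treated cells at 7 h and 3139 and 3113 CPM in regular culture at 7 h. The library sizes behind the CPM were 0.838 and 0.846 times the listed reads in treated cells at 7 h, and 1.04 to 1.09 times them in every other library. When libraries were scaled to their summed listed reads instead, called total scaling here, the median log2 change of all genes moved by -0.3146 at 7 h. In bulk RNA, fewer cells of a kind and less RNA per cell cannot be told apart.

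Levels between genes were compared as CPM per kilobase of annotated exons. In regular culture at 1 h the highest members were USP22 (60.0 CPM per kb), the deubiquitinase of the SAGA co-activator complex, and USP5 (50.3 CPM per kb), which takes apart free ubiquitin chains. USP1 (43.8 CPM per kb) and USP11 (40.9 CPM per kb) followed. At the low end stood USP6 at 0.067 CPM per kb, an oncogene of aneurysmal bone cysts, and USP51 at 0.402 CPM per kb. Levels per kilobase rest on merged exon annotation, which is long for some members.

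At 7 h nearly every member differed between treated cells and regular culture, in both directions about equally. 41 of 44 members passed the test, 20 higher and 21 lower (limma, Benjamini-Hochberg adjusted p under 0.05 over all 13028 genes). Among all genes 81.6% passed, with 40.5% higher and 41.1% lower. The median log2 change was 0.04 over the members and -0.01 over all genes, and the median size of change was 0.502 against 0.498. 8 members changed at least 2-fold: USP53, USP51, USP49 and USP25 rose, and USP1, USP54, USP35 and USP31 fell. Changes of this size were seen in 22.1% of all genes. Total scaling gave 15 higher and 25 lower, and under it 3 members passed in the other direction, USP5, USP7 and USP39. Of the 41 members, 34 passed in the same direction in every setting tried, 15 higher and 19 lower. The members that did not pass at 7 h were USP6, USP22 and USP45.

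At 1 h fewer members had moved and the changes were smaller. 23 members passed, 13 higher and 10 lower, beside 38.4% of all genes, with 17.7% higher and 20.7% lower. The median log2 change was 0.04 over the members and 0.01 over all genes, and the median size of change was 0.136 against 0.133. USP51 rose and USP53 fell at least 2-fold, a size reached by 3.13% of all genes. Quantile normalization gave 20 higher and 7 lower, and total scaling gave 19 and 6. Of the 23 members, 14 passed in the same direction in every setting, 8 higher and 6 lower.

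**Figure D1:**
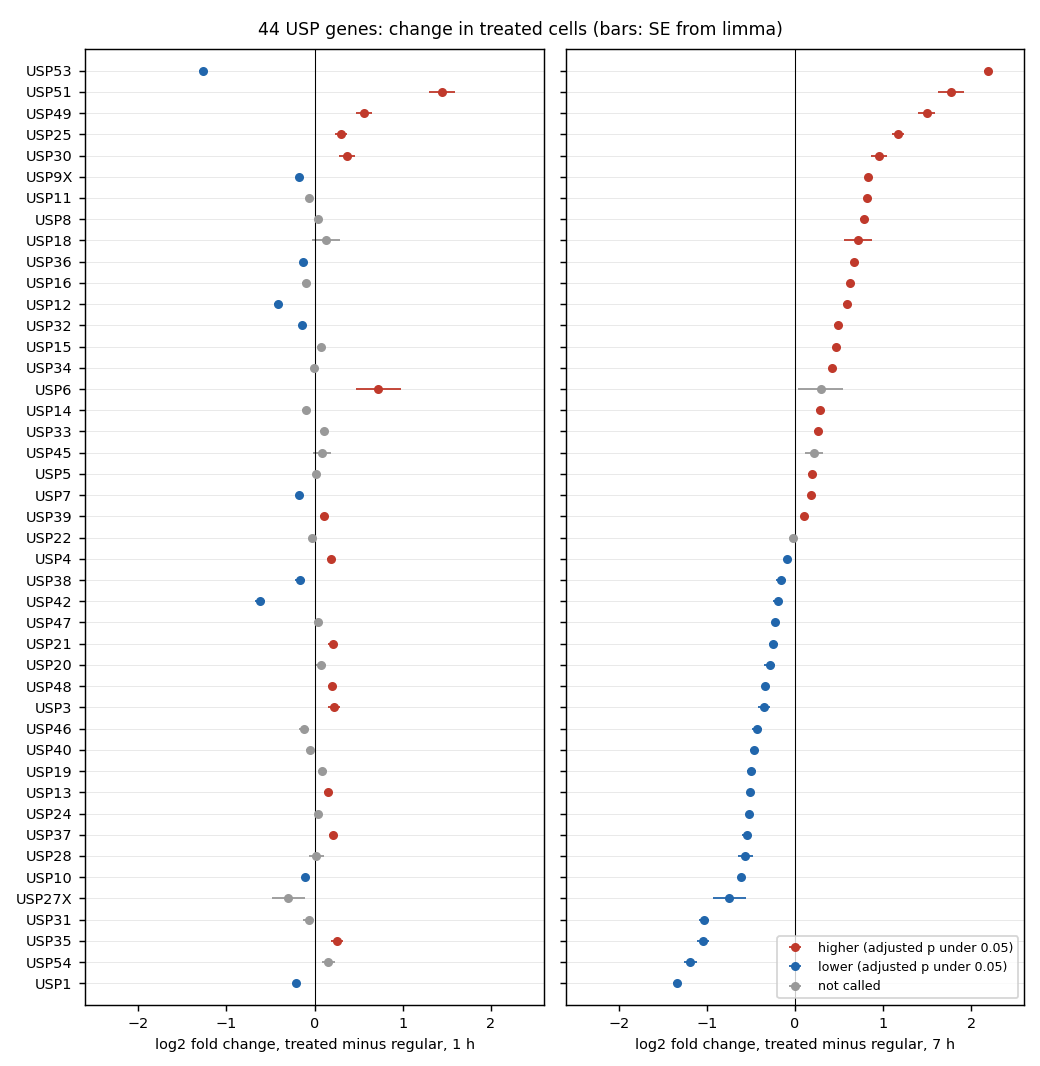
Log2 fold change, treated minus regular, of each of the 44 members at 1 h (left) and 7 h (right), ordered by the change at 7 h; points are limma estimates from 2 libraries per group and bars are standard errors. At 7 h the estimates run from 2.18 for USP53 to -1.34 for USP1, and at 1 h from 1.44 for USP51 to -1.26 for USP53.

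The largest change in the family was that of USP53, a protein of cell junctions long classed as a catalytically inactive USP. At 7 h it stood at 103 and 104 CPM in treated cells, against 22.5 and 22.9 CPM in regular culture. At 1 h it stood at 49.5 and 45.8 CPM in treated cells, against 118 and 111 CPM in regular culture. The groups did not overlap at either time, and the order was opposite: treated cells were high at 7 h and low at 1 h. The log2 change was 2.18 at 7 h (SE 0.05, limma adjusted p = 6.98e-19) and -1.26 at 1 h (SE 0.05, limma adjusted p = 2.84e-14). Regular culture itself differed between the times, with a log2 change of -2.33 at 7 h against 1 h (SE 0.05, limma adjusted p = 9.44e-19). USP53 lies at chr4:119212601-119295518 on the plus strand (GRCh38.p14, RefSeq).

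USP51 and USP49, which both remove ubiquitin from histones, rose at both times. USP51 had 8.86 and 8.71 CPM in treated cells at 7 h, against 2.53 and 2.56 CPM in regular culture, a log2 change of 1.77 (SE 0.15, limma adjusted p = 1.61e-09). At 1 h it had 4.72 and 4.98 CPM in treated cells, against 1.49 and 2.06 CPM in regular culture, a log2 change of 1.44 (SE 0.15, limma adjusted p = 2.11e-07). USP51 is a gene of the X chromosome that can take the place of USP22 in a SAGA-like deubiquitinase module. USP49 had 16.7 and 18.8 CPM in treated cells at 7 h, against 6.24 and 6.29 CPM in regular culture, a log2 change of 1.49 (SE 0.09, limma adjusted p = 1.54e-11). At 1 h it had 8.81 and 9.32 CPM in treated cells, against 5.87 and 6.39 CPM in regular culture, a log2 change of 0.56 (SE 0.09, limma adjusted p = 8.50e-05). Treated libraries were above regular ones without overlap in each of these 4 comparisons.

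USP25 and USP30 also rose at both times. USP25, linked to degradation of proteins from the endoplasmic reticulum and to immune signalling, had 27.2 and 28.1 CPM in treated cells at 7 h, against 11.7 and 12.8 CPM in regular culture. Its log2 change was 1.17 at 7 h (SE 0.07, limma adjusted p = 6.52e-12) and 0.30 at 1 h (SE 0.07, limma adjusted p = 1.97e-03). USP30, anchored in the mitochondrial outer membrane, where it opposes the tagging of mitochondria for autophagy, had 17.6 and 16.1 CPM in treated cells at 7 h, against 9.43 and 8.03 CPM in regular culture. Its log2 change was 0.95 at 7 h (SE 0.09, limma adjusted p = 1.10e-08) and 0.37 at 1 h (SE 0.09, limma adjusted p = 3.26e-03). The groups of both genes were apart at both times. At 1 h USP25 had 15.5 and 15.6 CPM in treated cells and 12.8 and 12.3 CPM in regular culture, and USP30 had 11.5 CPM in both treated libraries, with 8.48 and 9.33 CPM in regular culture.

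USP9X, USP11 and USP8 also rose at 7 h, by less than 2-fold. USP9X, a large X-linked protease that stabilises the survival factor MCL1, had 292 and 300.3 CPM in treated cells at 7 h, against 169 and 165 CPM in regular culture, a log2 change of 0.83 (SE 0.03, limma adjusted p = 6.42e-15). USP11, a relative of USP4 and USP15 with roles in repair of DNA breaks, had 224 and 220.2 CPM in treated cells at 7 h, against 127 and 125 CPM in regular culture. Its log2 change was 0.82 (SE 0.03, limma adjusted p = 1.72e-14). USP8, which acts at endosomes on the sorting of receptors such as EGFR, had 124 and 126 CPM in treated cells at 7 h, against 72.3 and 74.0 CPM in regular culture, a log2 change of 0.78 (SE 0.04, limma adjusted p = 2.29e-13). None of these groups overlapped. Total scaling kept all 3 higher, with log2 changes of 0.51, 0.50 and 0.46 for USP9X, USP11 and USP8.

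USP1, which takes ubiquitin off FANCD2 and PCNA in DNA repair and replication, fell the most. It had 72.2 and 75.4 CPM in treated cells at 7 h, against 188 and 187 CPM in regular culture, a log2 change of -1.34 (SE 0.04, limma adjusted p = 2.40e-17). At 1 h it had 164 and 159 CPM in treated cells, against 190.3 and 182 CPM in regular culture, a log2 change of -0.21 (SE 0.04, limma adjusted p = 1.27e-04). Treated libraries were the lower ones at both times, without overlap. USP54, a relative of USP53, had 11.1 and 10.1 CPM in treated cells at 7 h, against 25.1 and 23.5 CPM in regular culture, a log2 change of -1.19 (SE 0.08, limma adjusted p = 1.48e-11). Its groups were far apart at 7 h, while at 1 h it did not pass (limma adjusted p = 0.116). An annotated opposite-strand transcript, PPP3CB-AS1, covers 11.6% of its exon bases, and these libraries do not mark strand.

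USP35 and USP31, members with few known substrates, were the other falls of at least 2-fold. USP35 had 11.0 and 10.5 CPM in treated cells at 7 h and 22.2 CPM in both regular libraries, a log2 change of -1.04 (SE 0.07, limma adjusted p = 2.72e-11). At 1 h it stood at 22.5 and 20.6 CPM in treated cells, against 17.9 and 18.3 CPM in regular culture, a log2 change of 0.25 (SE 0.07, limma adjusted p = 6.25e-03). The order of the groups was thus opposite at the 2 times, without overlap at either. The call at 1 h was lost without treated library A, where the log2 change was 0.19 (limma adjusted p = 0.0987). USP31 had 15.6 and 16.1 CPM in treated cells at 7 h, against 32.5 and 32.4 CPM in regular culture, a log2 change of -1.03 (SE 0.06, limma adjusted p = 2.93e-12). A noncoding transcript on the same strand shares 25.1% of USP31 exon bases, so the reads of these overlapping genes cannot be told apart.

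Smaller falls at 7 h were seen in members of several roles. USP27X, a SAGA-type deubiquitinase like USP51, had 1.98 and 3.45 CPM in treated cells at 7 h, against 4.82 and 4.04 CPM in regular culture, a log2 change of -0.74 (SE 0.19, limma adjusted p = 1.18e-03). USP10, a partner of the stress granule proteins G3BP1 and G3BP2, had 76.2 and 74.0 CPM in treated cells, against 115 CPM in both regular libraries, a log2 change of -0.62 (SE 0.04, limma adjusted p = 5.17e-12). The groups of USP27X came closest, and those of USP10 were well apart. Without treated library A the USP27X change was -0.35 (limma adjusted p = 0.0449), and without library B it was -1.14. USP28, a nuclear protease that stabilises MYC, had 7.40 and 7.24 CPM in treated cells, against 10.8 and 10.9 CPM in regular culture, a log2 change of -0.56 (SE 0.08, limma adjusted p = 5.30e-06). USP37, which stabilises cyclin A, had 31.8 and 30.0 CPM in treated cells, against 46.1 and 44.4 CPM in regular culture, a log2 change of -0.55 (SE 0.05, limma adjusted p = 3.84e-09). VIL1, not among the listed genes, overlaps 35.4% of USP37 exon bases on the other strand.

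**Figure D2:**
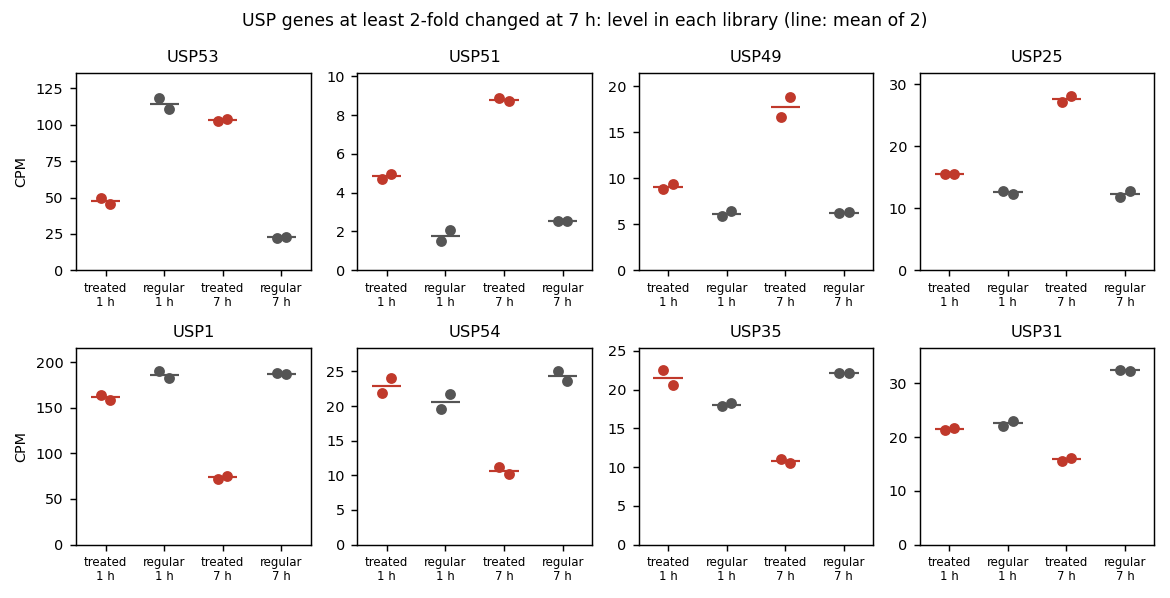
CPM in each library of the 8 members that changed at least 2-fold at 7 h; points are libraries and lines are means of 2, with treated groups in red and regular culture in grey. At 7 h both treated libraries lie above both regular ones for USP53, USP51, USP49 and USP25, and below them for USP1, USP54, USP35 and USP31.

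Promoter sequence is shown for the member with the widest change, for the one with the largest fall, and for USP25 and USP28, related genes whose transcripts went opposite ways at 7 h. The stretches lie before the outermost annotated start of each gene, are written 5′ to 3′ on the gene's strand, and come from RefSeq promoters of build GRCh38.p14. They are chr4:119212463-119212586 (plus strand) for USP53, chr1:62436145-62436296 (plus strand) for USP1, chr21:15729732-15729981 (plus strand) for USP25 and chr11:113875573-113875822 (minus strand) for USP28. Capitals mark a match to the CCAAT box, here read on the reverse strand. The stretch of USP53 shows no match, though its full search window, described below, held a CCAAT box in the part not printed.
USP53: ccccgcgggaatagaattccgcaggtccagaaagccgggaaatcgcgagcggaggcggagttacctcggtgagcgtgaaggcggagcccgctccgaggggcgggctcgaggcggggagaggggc
USP1: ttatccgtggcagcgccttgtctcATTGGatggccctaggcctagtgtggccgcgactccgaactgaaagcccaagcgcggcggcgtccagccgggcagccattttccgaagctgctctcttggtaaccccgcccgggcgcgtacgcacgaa
USP25: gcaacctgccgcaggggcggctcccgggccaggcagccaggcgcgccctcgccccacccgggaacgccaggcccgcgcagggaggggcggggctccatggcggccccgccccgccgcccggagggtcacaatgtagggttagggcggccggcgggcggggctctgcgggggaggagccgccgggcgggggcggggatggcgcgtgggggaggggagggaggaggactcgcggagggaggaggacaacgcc
USP28: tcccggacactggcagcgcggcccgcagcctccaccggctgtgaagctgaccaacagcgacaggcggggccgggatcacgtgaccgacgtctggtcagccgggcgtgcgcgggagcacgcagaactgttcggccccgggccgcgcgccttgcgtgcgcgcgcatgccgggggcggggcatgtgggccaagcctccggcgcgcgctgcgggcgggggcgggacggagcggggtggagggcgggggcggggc

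These stretches were rich in G and C, with 70.2% for USP53, 64.5% for USP1, 80.8% for USP25 and 78.4% for USP28. The 250 bases before the annotated start were available for 36 of the 44 members and had a median G and C content of 70.4%, against 58% over all 35116 promoter windows. The 17 members among them that rose at 7 h had a median of 69.2%, and the 16 that fell had 70.6%. These medians of members took the first listed window of each. Motifs were searched on both strands in all 49 windows of the 36 members. A member was counted if any of its windows matched, while the shares of all windows are per window, so the 2 are not like for like. The heat shock element (GAA, TTC and GAA, each 2 bases apart), the ATF4 element TGATGNAA and the AP-1 site TGANTCA were in no member window, and in 0.441%, 3.14% and 6.57% of all windows. The antioxidant response core TGACNNNGC was in windows of 4 members, of which USP14 rose and USP13, USP38 and USP54 fell at 7 h, and in 10.9% of all windows. The TEAD site GGAATG was in windows of 5 members, USP15, USP34 and USP36, which rose, and USP19 and USP54, which fell, and in 11.9% of all windows. The CCAAT box was in windows of 12 members, 7 that rose and 5 that fell, and in 32.0% of all windows. A match describes these letters only. The AP-1 and antioxidant patterns can overlap in a sequence.

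At 1 h the largest falls after USP53 were those of USP42, USP12, USP1 (-0.21, above), USP7 and USP9X. USP42, a nuclear deubiquitinase of histones, had 32.0 and 29.8 CPM in treated cells at 1 h, against 48.4 and 46.4 CPM in regular culture, a log2 change of -0.62 (SE 0.05, limma adjusted p = 2.13e-08). USP12, a partner of WDR48, had 56.1 and 54.0 CPM in treated cells at 1 h, against 76.6 and 70.5 CPM in regular culture, a log2 change of -0.42 (SE 0.04, limma adjusted p = 2.88e-07). Both genes had treated libraries below regular ones with no overlap. USP7, which stabilises the ubiquitin ligase MDM2, and USP9X fell less, with log2 changes of -0.18 (limma adjusted p = 1.94e-04) and -0.17 (limma adjusted p = 2.06e-04). USP7 had 143.5 and 144.9 CPM in treated cells at 1 h, against 163.8 and 163.3 CPM in regular culture. USP9X had 187.7 and 189.7 CPM in treated cells at 1 h, against 214 and 212 CPM in regular culture. Both were lower in treated libraries at 1 h with no overlap, and both were higher at 7 h on the deposited scale. USP38 and USP32 had log2 changes of -0.17 and -0.14 at 1 h, and neither passed under total scaling (limma adjusted p = 0.201 and 0.140). USP38 also did not pass at 1 h without treated library A or B or regular library A, with log2 changes of -0.18, -0.16 and -0.13.

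Among the rises at 1 h, USP6 was the lowest in level and had the largest standard error. It had 1.12 CPM in both treated libraries at 1 h, against 0.699 and 0.619 CPM in regular culture, a log2 change of 0.72 (SE 0.26, limma adjusted p = 0.0321). Without any 1 of the 4 libraries of that time it did not pass, with log2 changes of 0.64 to 0.80. Part of the USP6 transcript is shared with other genes, 8.81% of its stretches of 75 bases, and its reads may be split with them. USP3, a histone deubiquitinase, had 23.4 and 22.8 CPM in treated cells at 1 h, against 20.2 and 19.4 CPM in regular culture, a log2 change of 0.22 (SE 0.07, limma adjusted p = 0.0137). It did not pass without treated library A (0.20, limma adjusted p = 0.0835) or without regular library B (0.19, limma adjusted p = 0.0851). USP37 had 45.8 and 44.4 CPM in treated cells at 1 h, against 38.6 and 39.4 CPM in regular culture, a log2 change of 0.21 (SE 0.05, limma adjusted p = 2.24e-03). Each of these 3 genes had treated libraries above regular ones at 1 h.

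Members are described here by role, as counts with no test of the groups, beside 40.5% of all genes higher and 41.1% lower at 7 h. Of 7 membrane-linked members, 5 rose at 7 h (USP8, USP25, USP30, USP32 and USP33) and 2 fell (USP19 and USP20), with a median log2 change of 0.48. USP32, found at late endosomes and the Golgi, had 128 and 127 CPM in treated cells at 7 h, against 94.3 and 88.1 CPM in regular culture. USP32 shares 21.03% of its stretches of 75 bases with other genes. Total scaling left 4 of the 7 higher and 2 lower, and USP33 then had -0.06 and did not pass (limma adjusted p = 0.222). USP19, an anchored protein of the endoplasmic reticulum, and USP20 had log2 changes of -0.50 and -0.29, and of -0.81 and -0.61 under total scaling.

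Of 7 signalling members, 5 rose at 7 h (USP9X, USP11, USP15, USP18 and USP34) and 2 fell (USP4 and USP10), with a median log2 change of 0.46, and total scaling gave the same counts. USP15, known for effects on TGF-beta receptors, had a log2 change of 0.46, and 0.15 under total scaling. USP34, which acts on axin in Wnt signalling, had one of 0.42, and 0.10 under total scaling. The opposite-strand transcript AHSA2P covers 14.9% of USP34 exon bases, and it rose too, with 64.4 and 65.2 CPM in treated cells at 7 h and 32.5 and 35.7 CPM in regular culture. Its part in the USP34 value was not tested. USP18, which removes the ubiquitin-like protein ISG15, had 4.604 and 6.83 CPM in treated cells at 7 h, against 3.51 and 3.29 CPM in regular culture, a log2 change of 0.72 (limma adjusted p = 4.40e-04). Without treated library B that change was 0.43 (limma adjusted p = 0.0196), and under total scaling 0.40. Of its stretches of 75 bases, 18.3% also occur in USP41. USP4 fell by 0.09 on the log2 scale, with -0.41 under total scaling, and that call was lost without treated library A or without either regular library of 7 h.

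Of 7 members of DNA repair and replication, 5 fell at 7 h (USP1, USP28, USP37, USP47 and USP48) and USP7 rose, with a median log2 change of -0.34. Each member was placed by hand in a single role group. USP11, which also has roles in repair, was counted with the signalling members. It rose by 0.82 at 7 h, and by 0.50 under total scaling. USP7 had 192 and 186 CPM in treated cells at 7 h, against 166 and 169 CPM in regular culture, a log2 change of 0.17 (SE 0.03, limma adjusted p = 7.41e-05). Under total scaling the USP7 change was -0.14 (limma adjusted p = 4.90e-04), and the group held 0 higher and 6 lower. USP45 had 7.96 and 8.65 CPM in treated cells at 7 h and 7.08 and 7.22 CPM in regular culture, and did not pass (limma adjusted p = 0.0651).

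The 9 histone and chromatin members were divided at 7 h, with 4 higher (USP16, USP36, USP49 and USP51) and 4 lower (USP3, USP21, USP27X and USP42). USP36, a nucleolar protease that stabilises MYC, had 271 and 273 CPM in treated cells at 7 h, against 174 and 168 CPM in regular culture, a log2 change of 0.67. USP22 was the member that did not pass, with 293 and 268 CPM in treated cells at 7 h and 292 and 279 CPM in regular culture, groups that overlap. Its log2 change was -0.03 at 7 h (SE 0.04, limma adjusted p = 0.504). It passed as lower after quantile normalization (-0.25), with total scaling (-0.34) and without treated library A (-0.09). Thus of the SAGA-type proteases USP51 rose and USP27X fell, while the call for USP22 depended on the scaling.

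The proteasome and free chain group held USP14, a subunit bound to the proteasome that trims ubiquitin from its substrates, with USP5 and USP13. USP14 had 121 and 129 CPM in treated cells at 7 h, against 102 and 104 CPM in regular culture, a log2 change of 0.28 (SE 0.04, limma adjusted p = 2.16e-06). USP5 had 174 and 168 CPM in treated cells at 7 h, against 149.5 and 150.3 CPM in regular culture, a log2 change of 0.19 (SE 0.04, limma adjusted p = 2.07e-04). Neither direction held under total scaling, which gave -0.03 for USP14 (limma adjusted p = 0.433) and -0.13 for USP5 (limma adjusted p = 5.32e-03). USP13, a relative of USP5, fell by 0.51 on the log2 scale at 7 h and was lower under every scaling. At 1 h USP14 had 91.3 and 91.1 CPM in treated cells and 99.6 and 95.9 CPM in regular culture, and USP5 had 158 and 166 CPM in treated cells and 154 and 166 CPM in regular culture. Neither passed at 1 h (limma adjusted p = 0.0529 and 0.773).

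The remaining groups were small. Of 6 less studied members 5 fell at 7 h (USP24, USP31, USP35, USP38 and USP40) and USP6 did not pass, with a median log2 change of -0.50. USP39, a spliceosome component without protease activity, had a log2 change of 0.10 at 7 h that lost its call without treated library B or either regular library, and it was lower under total scaling (-0.21).

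The response of most members differed between the 2 times. For 37 of 44 members the change at 7 h differed from that at 1 h (limma interaction, adjusted p under 0.05), 19 upward and 18 downward, beside 73.7% of all genes, with 36.7% upward and 37.0% downward. 13 members passed in opposite directions at the 2 times, 29.5% of the 44, beside 13.3% of all genes, and all 13 passed the test of the difference. Only a gene that passed at both times can be opposite. Of the 22 members that did so 13 were opposite, beside 1738 of the 4355 such genes among all tested. 7 of the 13 members were higher at 1 h and lower at 7 h: USP3, USP4, USP13, USP21, USP35, USP37 and USP48. The other 6 were lower at 1 h and higher at 7 h: USP7, USP9X, USP12, USP32, USP36 and USP53. In regular culture all of the first 7 were higher at 7 h than at 1 h, with log2 changes of 0.21 to 0.37. The other 6, except USP7, which did not pass, were lower there at 7 h, with log2 changes of -0.19 to -2.33. Regular culture enters the change at both times, and its part in these opposite calls was not tested. 6 of the 13 kept both calls in every setting tried: USP9X, USP12, USP21, USP37, USP48 and USP53. The other 7 lost or turned a call in at least 1 setting. Total scaling moved the balance of the difference to 10 upward and 24 downward.

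USP53 had the largest difference, 3.45 on the log2 scale (SE 0.07, limma adjusted p = 3.27e-19). USP12 and USP9X followed with 1.01 (SE 0.06) and 1.00 (SE 0.05). USP12 had 88.3 and 89.8 CPM in treated cells at 7 h, against 58.8 and 59.3 CPM in regular culture, so treated cells were high at 7 h and low at 1 h. The largest downward differences were those of USP54 (-1.34, SE 0.11), USP35 (-1.30, SE 0.10), USP1 (-1.13, SE 0.05) and USP31 (-0.96, SE 0.08). 5 members rose at both times, USP25, USP30, USP39, USP49 and USP51, and 4 fell at both, USP1, USP10, USP38 and USP42. For USP51 the difference between times was 0.32 (SE 0.21, limma adjusted p = 0.175), so a larger rise at 7 h was not shown.

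**Figure D3:**
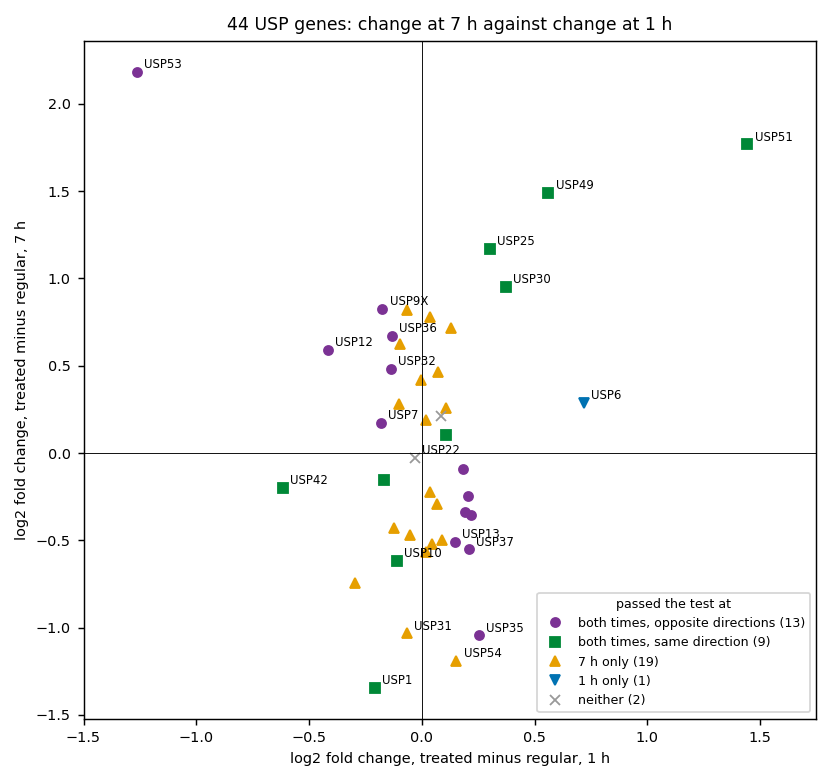
Log2 fold change, treated minus regular, at 7 h (vertical) against 1 h (horizontal) for the 44 members; each point is a limma estimate from 2 libraries per group, and its mark shows the times at which it passed. 13 members passed in opposite directions at the 2 times, with USP53 at the upper left and USP35 among those at the lower right, and 9 passed in the same direction at both.

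Regular culture also changed between 1 h and 7 h. 30 of 44 members differed at 7 h from 1 h, 15 higher and 15 lower, beside 61.5% of all genes, with 30.7% higher and 30.8% lower. This comparison shares its libraries with both treated comparisons. USP53 was the only one that changed at least 2-fold, a size seen in 6.25% of all genes. USP31 had 32.5 and 32.4 CPM at 7 h, against 22.04 and 23.1 CPM at 1 h, a log2 change of 0.52 (SE 0.06, limma adjusted p = 2.82e-07). USP42 had 32.7 and 31.2 CPM at 7 h, against 48.4 and 46.4 CPM at 1 h, a log2 change of -0.57 (SE 0.05, limma adjusted p = 3.68e-08). The groups of both genes did not overlap. USP6 (0.68), USP51 (0.53) and USP27X (-0.45) passed as well. USP6 lost its call without regular library B of 1 h (0.60) or without library A (0.76) or B (0.60) of 7 h. USP51 lost it without library A of 1 h (0.30), and USP27X without library B of 1 h (-0.33) or of 7 h (-0.33). USP27X did not pass after quantile normalization (-0.35) or total scaling (-0.44) either. Quantile normalization gave 18 higher and 11 lower.

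Related members went opposite ways at 7 h in several cases. The pairs were chosen as known relatives with their values in view, so their ratios are a description with no test. Among all genes 40.5% were higher and 41.1% lower at 7 h, so unrelated genes can go opposite ways too. A ratio of 2 genes within a library is the same on the deposited scale and under total scaling, though not after quantile normalization. USP53 over USP54 was 9.21 and 10.3 in CPM in treated cells at 7 h, against 0.896 and 0.973 in regular culture. At 1 h it was 2.26 and 1.90 in treated cells, against 6.05 and 5.11 in regular culture. The balance of this pair thus lay toward USP53 in treated cells at 7 h and away from it at 1 h.

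USP25 over USP28 was 3.67 and 3.87 in treated cells at 7 h, against 1.08 and 1.17 in regular culture. USP51 over USP27X was 4.48 and 2.53 in treated cells at 7 h, against 0.524 and 0.634 in regular culture. USP12 over USP46, which share the partner WDR48, was 3.77 and 3.66 in treated cells at 7 h, against 1.85 and 1.81 in regular culture. In all 3 pairs the treated ratios at 7 h were above the regular ones without overlap. USP11 over USP4 was 2.85 and 2.75 in treated cells at 7 h, against 1.483 and 1.497 in regular culture. USP36 over USP42 was 9.98 and 9.54 in treated cells at 7 h, against 5.31 and 5.36 in regular culture. The ratios of USP5 over USP13, USP33 over USP20 and USP7 over USP47 were likewise higher in treated cells at 7 h. In these 3 pairs the opposite directions did not hold under total scaling, where USP5 (-0.13) and USP7 (-0.14) passed as lower and USP33 (-0.06) did not pass. After quantile normalization USP33 (0.21) and USP20 (-0.21) still passed in opposite directions, while USP5 (0.04) and USP7 (0.02) did not pass. By contrast USP11 and USP15 both rose, and their ratio was 2.29 in both treated libraries at 7 h, against 1.78 and 1.80 in regular culture. USP35 and USP38, also compared, both fell at 7 h. In the pairs USP16 and USP45, USP32 and USP6, and USP51 and USP22, the first rose and the second did not pass.

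**Figure D4:**
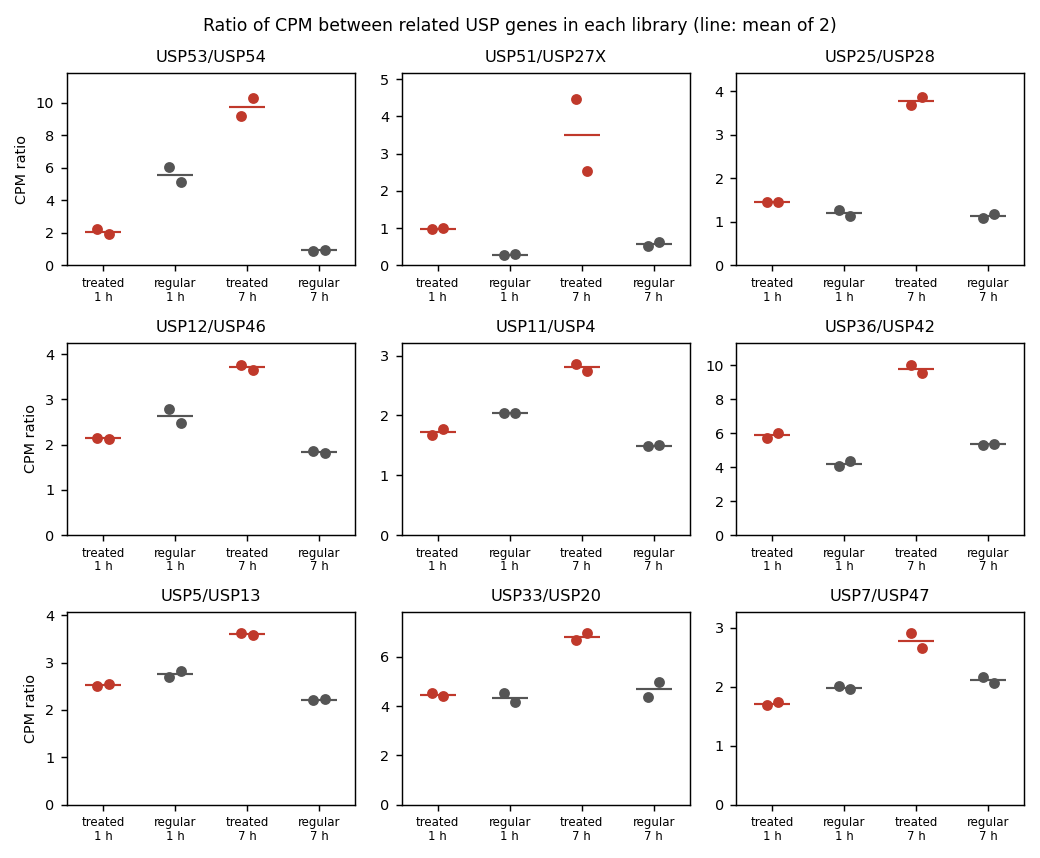
Ratio of CPM between related members in each library, for 9 pairs whose members passed in opposite directions at 7 h on the deposited scale, 6 of them under total scaling too; points are libraries and lines are means of 2, treated groups in red and regular culture in grey. In every pair shown both treated libraries at 7 h lie above both regular libraries of that time, and USP53 over USP54 reaches 9.21 and 10.3.

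Outside the USP family by name, 34 genes were tested out of a list of 38. The list holds deubiquitinases and genes of related fold, and is called other deubiquitinases here. At 7 h 24 rose and 7 fell, with a median log2 change of 0.39, while total scaling gave 15 higher and 13 lower. USPL1, PAN2 and COPS5 were listed by fold, whatever they act on, and are among the 24 that rose. Among all genes 40.5% were higher and 41.1% lower at that time. USPL1, a USP-fold protease that acts on SUMO, had 130.1 and 127 CPM in treated cells at 7 h, against 21.3 and 19.5 CPM in regular culture, a log2 change of 2.66 (limma adjusted p = 1.36e-19). PSMD14, the deubiquitinase of the proteasome lid, had 326 and 334 CPM in treated cells at 7 h, against 140.0 and 138 CPM in regular culture, a log2 change of 1.24 (limma adjusted p = 2.55e-17). Rises also included OTUD1 (1.61), ZUP1 (1.30) and UCHL1 (1.22), and falls OTUD4 (-0.96), BRCC3 (-0.95) and BAP1 (-0.71). At 1 h 5 rose and 7 fell, beside 17.7% and 20.7% of all genes, with 3 rises without treated library A or regular library A. TNFAIP3, which restrains NF-kB signalling, had 7.37 and 7.60 CPM in treated cells at 1 h, against 68.8 and 69.3 CPM in regular culture, a log2 change of -3.20 (limma adjusted p = 6.46e-17). TNFAIP3 in regular culture itself differed between the times, with 8.18 and 7.55 CPM at 7 h. That was a log2 change of -3.13 against 1 h (limma adjusted p = 5.15e-17). At 7 h its log2 change in treated cells against regular culture was 0.95.

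Of 15 partner proteins of USPs, 6 rose and 4 fell at 7 h, and total scaling gave 1 higher and 10 lower. The 10 that passed are 66.7% of the partners, below the 81.6% of all genes. WDR48, the activator of USP1, USP12 and USP46, had 55.5 and 55.1 CPM in treated cells at 7 h, against 45.4 and 48.3 CPM in regular culture, a log2 change of 0.24 (limma adjusted p = 6.86e-05). WDR20, the second activator of USP12 and USP46, had 16.7 and 19.8 CPM in treated cells at 7 h, against 31.8 and 34 CPM in regular culture, a log2 change of -0.85 (limma adjusted p = 1.06e-09). On the deposited scale treated libraries were thus above regular ones for WDR48 and below them for WDR20. Under total scaling WDR48 had -0.08 and did not pass (limma adjusted p = 0.120). ATXN7L3, the activator of USP22, USP27X and USP51, had 40.3 and 39.3 CPM in treated cells at 7 h, against 65.1 and 64.4 CPM in regular culture, a log2 change of -0.70 (limma adjusted p = 8.11e-12). At 1 h 2 partners rose and 5 fell, 46.7% of them beside 38.4% of all genes, and 1 rose and 3 fell without treated library A or regular library B. GMPS, which binds USP7, and PSMD2, the docking subunit of USP14, had log2 changes of 0.12 and 0.04 at 7 h, and PSMD2 did not pass (limma adjusted p = 0.223). Under total scaling both passed as lower, with -0.20 for GMPS and -0.27 for PSMD2.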

How the data were processed

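The SMART-Seq mRNA HT and Nextera XT kits were used, per the labels' protocols, and leave reads without strand. Per the submitters' processing notes, the tools were HISAT2 and edgeR and the build GRCh38; their versions, the counter and any filter are not given in the sources used. The authors deposited log2 CPM with a small prior of 0.0522 CPM; without it, 100% of values lay within 0.1 read of whole reads. Columns name the group but no replicate. The limit of detection allowed by a count of 0 is 3 reads, which was 0.0626 to 0.129 CPM, for counting error only.

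The 13028 genes that reached 1 CPM in 2 or more libraries were tested, and 8 were left out. The fit, by limma 3.58.1 in R 4.3.3, used the deposited log2 values with 1 mean per group, an intensity trend and all 8 libraries (4 residual degrees of freedom). It tested treated minus regular at 1 h and 7 h, their difference, and regular culture at 7 h minus 1 h. The procedure was also run on simulated data in which few genes changed and no shift of scaling was built in. That run cannot speak to the choice of scaling, and no conclusion is drawn from it. Fold changes on this scale understate the change of low genes. Alternatives were no filter, quantile normalization, total scaling (to the summed listed reads), a pseudocount of 0.5 CPM, voom weights on the recovered whole reads, fits of only the 2 groups compared, and leaving out each library.

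Members named with values are the 8 that rose most and the 8 that fell most at each time among those that passed with groups apart, the 4 largest differences between times and 3 largest changes in regular culture in each direction, and USP14, USP5, USP7, USP9X, USP22, USP1, USP8 and USP30 whatever their result. Other members, named to complete a role group, a pair or a count, were chosen after their values were seen. Members, role groups, lists and motifs were chosen with earlier results of these data known. Exon overlap came from GENCODE 29. Genes outside the table were not analysed here.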

Additional observations from a re-analysis of the deposited data

Results flagged for a closer look

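In 37 members the effect at 7 h differed from the effect at 1 h by limma's interaction test at an adjusted p under 0.05. Upward differences on the log2 scale, 7 h effect minus 1 h effect, were 3.45 for USP53, 1.01 for USP12, 1.00 for USP9X, 0.93 for USP49, 0.81 for USP36, 0.74 for USP8, 0.62 for USP32, 0.58 for USP30, 0.38 for USP14, 0.36 for USP7 and 0.17 for USP5. Downward differences were -1.34 for USP54, -1.30 for USP35, -1.13 for USP1, -0.96 for USP31, -0.76 for USP37, -0.66 for USP13, -0.57 for USP3, -0.53 for USP48, -0.45 for USP21 and -0.27 for USP4. Regular culture enters these differences: USP53 had 22.5 and 22.9 CPM in regular culture at 7 h, against 118 and 111 CPM at 1 h. Of the 37 members, 28 passed in the same direction under both other scalings. The other 9, all with upward differences, were USP5, USP7, USP14, USP15, USP18, USP30, USP33, USP34 and USP42. No group held enough libraries for a search for single libraries that stand apart.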

How the results depend on the processing

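No filter, a pseudocount of 0.5 CPM and voom weights on whole reads kept the direction and the side of the threshold of all 75 member values compared, and fits of only the 2 groups compared did so for all 58. Quantile normalization kept 65 of 75, and moved the rises at 1 h to 20 members and 8 other deubiquitinases, and the partners at 1 h to 4 called and 2 lower. Total scaling kept 64 of 75. It turned 4: USP5 at 7 h (-0.13), USP7 at 7 h (-0.14), USP14 at 7 h (-0.035) and the USP7 difference between times (-0.029). It gave 6 falls at 1 h and 10 upward differences among members. Other deubiquitinases then had 9 rises at 1 h, 15 rises and 13 falls at 7 h, and partners 3 falls at 1 h, 1 rise and 10 falls at 7 h. The cause was not tested, beyond the shift of the median of all genes by -0.3146 at 7 h. Leaving out 1 library changed counts by over 1.5 times only in the lists outside the family at 1 h: 3 to 4 rises of other deubiquitinases, and 4 to 7 partners called, with 1 to 2 rises and 3 to 5 falls. These fits assume that the lone library left in a group varies like the other groups. No paired analysis was possible because the columns carry no replicate number. With 2 libraries per group, depth limits mainly USP6, USP51, USP27X and USP18, the members below 5 CPM in at least 1 library.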

Other observations

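4 genes with a USP symbol of another form lay outside the family rule. USP6NL, a regulator of endosomal GTPases named for its likeness to part of USP6, had 64.5 and 62.1 CPM in treated cells at 7 h, against 37.7 and 36.9 CPM in regular culture, a log2 change of 0.76 (limma adjusted p = 6.26e-12). At 1 h its log2 change was -0.23 (limma adjusted p = 4.94e-04). The divergent noncoding transcripts USP46-DT and USP27X-DT, which start beside USP46 and USP27X, had log2 changes of -1.23 (limma adjusted p = 1.38e-04) and -0.68 (limma adjusted p = 0.0170) at 7 h. USP46-DT had 0.861 and 0.574 CPM in treated cells at 7 h, against 1.503 and 1.96 CPM in regular culture. USP27X-DT had 1.03 and 0.862 CPM in treated cells at 7 h, against 1.38 and 1.72 CPM in regular culture. USP46 and USP27X themselves fell at 7 h, by 0.43 and 0.74 on the log2 scale. KCTD21 lies on the strand opposite to USP35 and shares 11 exon bases with it. KCTD21 had 8.82 and 7.66 CPM in treated cells at 7 h, against 20.9 and 20.5 CPM in regular culture, a log2 change of -1.33 (limma adjusted p = 7.50e-12).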
